A study of Mus musculus with 13 samples.

Results

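The genes described are 36 cell cycle and DNA replication genes, chosen by symbol from the 55536 genes of the count table: 4 cyclin-dependent kinases, 7 cyclins, 4 genes of the inhibitor Cdkn1b and the pocket proteins, 2 E2F factors, 7 replication genes and 12 genes of mitosis and cytokinesis. All 36 symbols were found, and 31 had enough reads to be tested. RNA was counted in nuclei of ventricular muscle from C57BL/6J mice, an inbred strain, that were injected intraperitoneally on postnatal day 1 with an adeno-associated virus of serotype 6 and sampled on postnatal day 56. The groups were females given the vector with the human progesterone receptor (PGR_F, 3 libraries, numbered 1, 2 and 4), females given the vector with no insert (Con_F, 4 libraries), males given the receptor vector (PGR_M, 3 libraries) and males given the empty vector (Con_M, 3 libraries). Every group, the controls included, thus received a virus at birth and lived to the same age. Each library pooled 3 to 6 whole ventricles, and the nuclei kept were those positive for Pcm1, whose protein gathers at the nuclear envelope of cardiomyocytes. The sources used here do not name the promoter that drives the receptor. The human insert was not measured here.

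Progress through the cell cycle is driven by cyclin-dependent kinases bound to their cyclins. Cyclin D with Cdk4 or Cdk6 phosphorylates the pocket proteins Rb1, Rbl1 and Rbl2, which otherwise hold E2F factors in check. Freed E2F factors switch on the genes that copy DNA, and Cdk1 with cyclin B then takes the cell into mitosis. Mouse cardiomyocytes leave the cycle in the weeks after birth, so in adult ventricles most dividing cells are not cardiomyocytes.

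Library totals ran from 31.8 to 55.5 M counts in PGR_F, 37.6 to 58.9 in Con_F, 45.3 to 57.9 in PGR_M and 33.3 to 86.3 in Con_M. Levels are given in CPM, counts per M scaled by TMM, a factor that corrects for the make-up of each library. The 15 cardiomyocyte markers, Tnnt2, Myh6 and Ttn among them, summed to between 82305 and 101834 CPM in the 13 libraries. Markers of other heart cells were also present. The 12 fibroblast markers summed to 84.1 to 190 CPM in PGR_F, 114 to 168 in Con_F, 52.2 to 135 in PGR_M and 43.3 to 101 in Con_M. The 15 endothelial markers summed to 50.9 to 92.8 CPM in PGR_F, 73.6 to 89.9 in Con_F, 41.4 to 77.0 in PGR_M and 36.8 to 69.3 in Con_M. No fibroblast, endothelial, smooth muscle or macrophage marker on the lists was at 0 in any library, whereas 9 of 10 lymphocyte markers were at 0 in at least 1. Con_F 4 held 159 counts from Y-linked genes, 1.01% of the male level, against 0.0112% to 0.112% in the other 6 female libraries.

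Promoters show how the genes of the different phases are set apart in sequence. RefSeq windows on build GRCm38.p6, from 250 bases before to 50 bases after the start of the gene, were found for 30 of the 36 genes. No window was at hand for Rb1, Ccna2, Ccnd2, Ccne2, Mcm4 and Aurkb. Each window was searched on both strands for an E2F word (TTTCCCGC, TTTCGCGC, TTTGCCGC or TTTGGCGC), for the cell cycle homology region, CHR (TTTGAA), which the DREAM and MuvB complexes are known to bind, and for CCAAT, which NF-Y is known to bind. The windows of 4 genes are shown because Cdk1 and Cenpf had the smallest p between females and males, Mki67 is the standard marker of cycling cells and Mcm7 led the vector comparison in males. Capitals mark the matched words. The intervals are chr10:69352863-69353162 for Cdk1, chr1:189688037-189688336 for Cenpf, chr7:135716330-135716629 for Mki67 and chr5:138171834-138172133 for the first Mcm7 start, all on the minus strand and printed in the direction of the gene.
Cdk1: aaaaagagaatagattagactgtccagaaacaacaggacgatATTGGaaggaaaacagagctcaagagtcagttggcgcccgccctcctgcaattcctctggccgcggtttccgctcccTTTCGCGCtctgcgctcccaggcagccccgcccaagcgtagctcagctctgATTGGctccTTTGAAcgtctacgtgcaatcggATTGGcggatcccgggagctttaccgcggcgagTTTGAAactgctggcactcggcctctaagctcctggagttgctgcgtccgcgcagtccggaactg
Cenpf: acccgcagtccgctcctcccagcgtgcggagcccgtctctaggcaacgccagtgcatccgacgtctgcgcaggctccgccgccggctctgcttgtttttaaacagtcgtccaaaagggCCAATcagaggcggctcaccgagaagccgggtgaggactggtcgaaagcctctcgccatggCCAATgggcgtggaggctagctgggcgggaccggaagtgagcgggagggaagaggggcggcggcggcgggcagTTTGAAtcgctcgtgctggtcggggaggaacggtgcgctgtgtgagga
Mki67: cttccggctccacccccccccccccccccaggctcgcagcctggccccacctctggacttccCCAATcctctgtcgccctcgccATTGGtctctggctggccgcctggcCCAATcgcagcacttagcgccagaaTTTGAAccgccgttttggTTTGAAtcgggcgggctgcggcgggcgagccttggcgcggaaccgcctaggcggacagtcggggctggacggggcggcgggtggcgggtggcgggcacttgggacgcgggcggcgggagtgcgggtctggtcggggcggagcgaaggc
Mcm7: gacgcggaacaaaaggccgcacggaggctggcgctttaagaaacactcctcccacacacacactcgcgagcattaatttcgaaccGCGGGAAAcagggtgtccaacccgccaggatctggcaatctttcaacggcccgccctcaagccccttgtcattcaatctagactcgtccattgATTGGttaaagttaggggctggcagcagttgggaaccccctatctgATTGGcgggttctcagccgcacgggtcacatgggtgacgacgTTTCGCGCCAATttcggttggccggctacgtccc
The Cdk1 window held 1 E2F word, 2 CHR words and 3 CCAAT words. The Cenpf window held 1 CHR and 2 CCAAT words, the Mki67 window 2 CHR and 3 CCAAT words, and neither held an E2F word. The Mcm7 window held 2 E2F words, no CHR word and 3 CCAAT words, one of which overlaps an E2F word. The window of the second Mcm7 start (chr5:138171217-138171516), not shown, held 1 CCAAT word and no E2F or CHR word.

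By role, an E2F word stood in the window of 4 of 6 replication genes (66.7%) and of 0 of 11 mitosis genes, against 2.60% of 27025 genes with a window and 2.26% of all 32851 windows. A CHR word stood in 9 of 11 mitosis genes (81.8%) and in 1 of 6 replication genes (16.7%), against 20.2% of all genes and 17.9% of all windows. CCAAT stood in 10 of 11 mitosis genes (90.9%) and in all 6 replication genes, against 41.1% of genes and 37.4% of windows. Over the 30 genes the counts were 8 for E2F, 14 for CHR and 23 for CCAAT. A gene with several windows was counted if any of them held the word. A match is a string of letters and not a measured binding site.

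**Figure D1:**
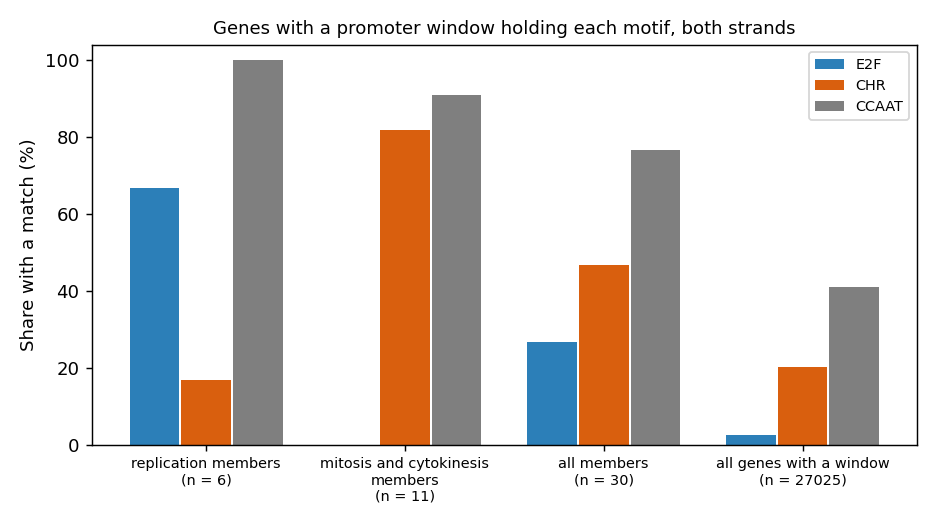
Share of genes (percent) with an E2F, CHR or CCAAT word in the promoter window, for 6 replication genes, 11 genes of mitosis and cytokinesis, all 30 genes with a window, and 27025 genes of the annotation. E2F words stood in 66.7% of the replication genes and none of the mitosis genes, and CHR words in 81.8% of the mitosis genes.

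The highest levels belonged to genes that set up or restrain the start of the cycle, and most genes of mitosis had low ones. Levels between genes are given as mean CPM per kb of the gene interval, which includes introns. Cdkn1b, the inhibitor p27, stood highest at 2.02 CPM per kb (range over the 13 libraries 1.68 to 2.63), beside the kinase Cdk4 at 1.96 (1.72 to 2.20). The transcription factor E2f3 had 0.923, the pocket protein Rbl2 0.793, the kinase Cdk2 0.611, cyclin D2, encoded by Ccnd2, 0.600, the retinoblastoma gene Rb1 0.542 and the kinase Cdk6 0.523 CPM per kb. The order depends on the measure: without division by length, Cdk6 stood highest at 99.1 CPM, with Rb1 at 77.0 and E2f3 at 73.3. Cdkn1b then had 10.4 and Cdk4 8.61 CPM. The medians by role, in CPM per kb, were 0.667 for the inhibitor and pocket proteins, 0.567 for the kinases, 0.466 for the 2 E2F factors (E2f3 at 0.923 and E2f1 at 0.00941), 0.0795 for the replication genes, 0.0704 for the cyclins and 0.0181 for the mitosis genes.

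Within a role the genes were far apart. The pocket protein Rbl1 had 0.0161 CPM per kb, below the median of the mitosis genes, and the E cyclins Ccne1 and Ccne2 had 0.0653 and 0.0868. Among the kinases, Cdk1, which drives entry into mitosis, had 0.0130 CPM per kb, and the other three had at least 0.523. Among the cyclins, Ccnd2 had 0.600 and Ccnd3 0.240, and cyclin B1, encoded by Ccnb1, had 0.00716. Of the replication genes, the helicase subunit Mcm7 had 0.463 and the sliding clamp Pcna 0.409, while the other helicase subunits Mcm2 to Mcm6 lay between 0.0291 and 0.0912. Cenpf, which encodes a large kinetochore and nuclear matrix protein, stood apart from the other mitosis genes at 0.459 CPM per kb (0.357 to 0.634). The next of them was Mki67, the Ki-67 gene, at 0.0394. The other genes of mitosis, from the kinase Plk1 at 0.0305 to the checkpoint kinase Bub1 at 0.00191, were lower still. Some of the intervals overlap other genes: Ccne2 shares 41.9% of its interval with Ints8 on the opposite strand, Rbl2 22.4% with Aktip and Mcm7 5.37% with Ap4m1, and reads of such pairs can be told apart only where the count used strand. Cdk1 and Pcna overlap no other gene, and the 1 overlapping neighbour of Cenpf had 1 count in all.

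**Figure D2:**
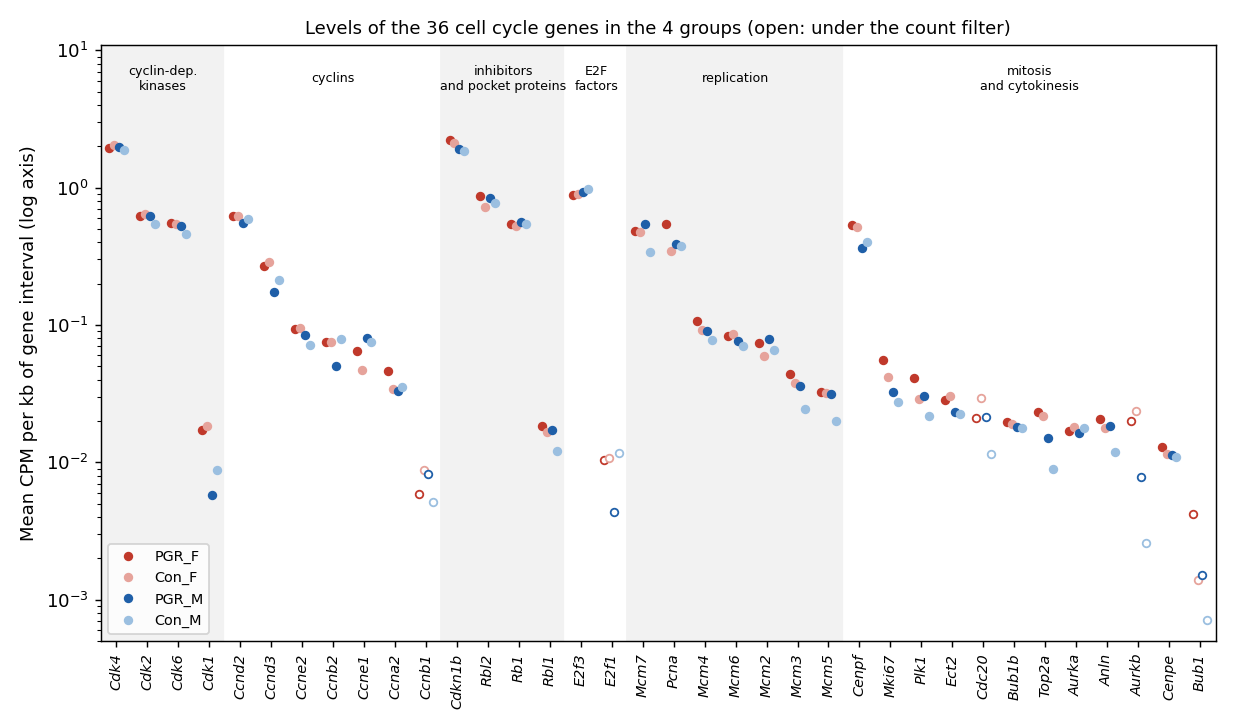
Mean CPM per kb of gene interval (log axis) of the 36 genes in PGR_F, Con_F, PGR_M and Con_M, grouped by role; open circles are the 5 genes under the count filter. Cdkn1b and Cdk4 stand at about 2.02 and 1.96, and Bub1 lowest at 0.00191.

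Only 10 of the 36 genes had at least 100 counts in every library, and 18 had a mean of at least 1 CPM. The 5 genes under the filter were Cdc20, an activator of the anaphase-promoting complex (2 to 8 counts per library), the mitotic kinase Aurkb (0 to 13), the factor E2f1 (1 to 8), Ccnb1 (1 to 5) and Bub1 (0 to 10). Aurkb was at 0 in Con_M 2 and Con_M 3, where a count of 0 allows up to 0.0854 and 0.0933 CPM. Bub1 was at 0 in Con_F 3 and Con_M 2 and reached 10 counts in PGR_F 1. The filter asked for about 0.221 CPM in at least 3 libraries, and 26 of the 31 tested genes reached this in all 13. Ccna2, Plk1, Top2a and Aurka reached it in at least 1 library of every group, and Cdk1 reached it in 6 of 7 female and 0 of 6 male libraries, so Cdk1 was tested on account of its female libraries.

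Rb1, Ccnd2 and Cdk6, genes of the start of the cycle, varied by different amounts among libraries. Rb1 had 86.0, 72.2 and 72.4 CPM in PGR_F 1, 2 and 4, 69.8, 81.7, 72.1 and 76.5 in Con_F 1 to 4, 75.9, 78.2 and 84.3 in PGR_M 1 to 3, and 73.3, 81.0 and 77.5 in Con_M 1 to 3. Ccnd2, the D-type cyclin with the highest level per kb, had 17.0, 18.1 and 15.3 CPM in PGR_F, 16.7, 17.3, 18.1 and 15.3 in Con_F, 14.4, 16.3 and 14.5 in PGR_M, and 17.3, 14.3 and 16.4 in Con_M. Cdk6, its partner kinase, had 91.6, 106 and 118 CPM in PGR_F, 105, 106, 93.3 and 108 in Con_F, 124, 80.8 and 94.0 in PGR_M, and 92.9, 85.8 and 83.2 in Con_M. Cdk6 ran from 80.8 to 124 CPM within PGR_M alone. The groups of Rb1, Ccnd2 and Cdk6 overlapped, except that every Con_F library exceeded every Con_M library for Cdk6.

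The first question was whether the receptor vector changed these genes in females. No gene passed in PGR_F over Con_F, where edgeR called 0% of all 16125 tested genes. At an unadjusted p under 0.05 stood 2 of the 31 genes, both higher, against 10.9% of all genes. Pcna (chr2:132249162-132253314, GRCm38, minus strand), the clamp that tethers DNA polymerase, had 1.96, 2.61 and 2.25 CPM in PGR_F 1, 2 and 4, against 1.30, 1.42, 1.48 and 1.53 in Con_F 1 to 4. All PGR_F libraries exceeded all Con_F libraries for Pcna, and the log2 fold change was 0.67 (SE 0.17, edgeR adjusted p = 0.281). It was the only tested member whose libraries did not overlap, where 4.17% of all genes were higher and 4.07% lower in this way. Rbl2, the p130 pocket protein of resting cells, was at 0.28 (SE 0.10, adjusted p = 0.362). Cyclin E1, encoded by Ccne1, was at 0.46 (SE 0.31), the helicase subunit Mcm2 at 0.32 (SE 0.23) and Plk1 at 0.45 (SE 0.33). The 31 genes had a median log2 fold change of 0.03, with 19 above and 12 below 0, beside a median of 0.00 over all tested genes, 50.7% of which were above 0.

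In males no gene passed either, and edgeR again called 0% of all genes. At an unadjusted p under 0.05 stood 3 genes, 2 higher and 1 lower, against 7.48% of all genes. Mcm7 (chr5:138164583-138172422, minus strand) had 3.97, 4.45 and 4.39 CPM in PGR_M 1 to 3, against 2.34, 2.76 and 2.92 in Con_M 1 to 3. The groups did not overlap, and the log2 fold change was 0.69 (SE 0.23, edgeR adjusted p = 0.611). In females the Mcm7 libraries overlapped, with 3.55, 2.65 and 5.14 CPM in PGR_F against 2.72, 3.38, 4.83 and 4.04 in Con_F. Cyclin B2, encoded by Ccnb2, had 0.794, 0.731 and 0.575 CPM in PGR_M, against 1.00, 1.22 and 1.06 in Con_M. Its log2 fold change was -0.63 (SE 0.24, adjusted p = 0.611). Anln, the actin-binding anillin of the cleavage furrow, was at 0.65 (SE 0.29), the helicase subunit Mcm3 at 0.57 (SE 0.28) and Mcm5 at 0.64 (SE 0.37). Libraries did not overlap for 7 genes that were higher (Rbl2, Mcm7, Mcm4, Mcm3, Mcm5, Anln and Rbl1) and 3 that were lower (E2f3, Ccnb2 and Cdk1), where 7.21% of all genes were higher and 8.47% lower in this way. Some of these gaps were narrow: Cdk1 had at most 0.1381 CPM in PGR_M and at least 0.1397 in Con_M, and reached the filter level in no male library. Mcm5 had at least 0.3871 CPM in PGR_M and at most 0.3843 in Con_M. E2f3 had at most 75.41 CPM in PGR_M and at least 75.44 in Con_M. The median over the 31 genes was 0.12, with 23 above and 8 below 0, beside 0.00 over all genes, 50.1% of which were above 0. Endothelial markers were above 0 for 14 of 15 genes in males (median 0.25) and for 0 of 15 in females (median -0.25), and macrophage markers for 10 of 13 in males (median 0.33) and 7 of 13 in females (median 0.06). Their part in these results was not tested.

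**Figure D3:**
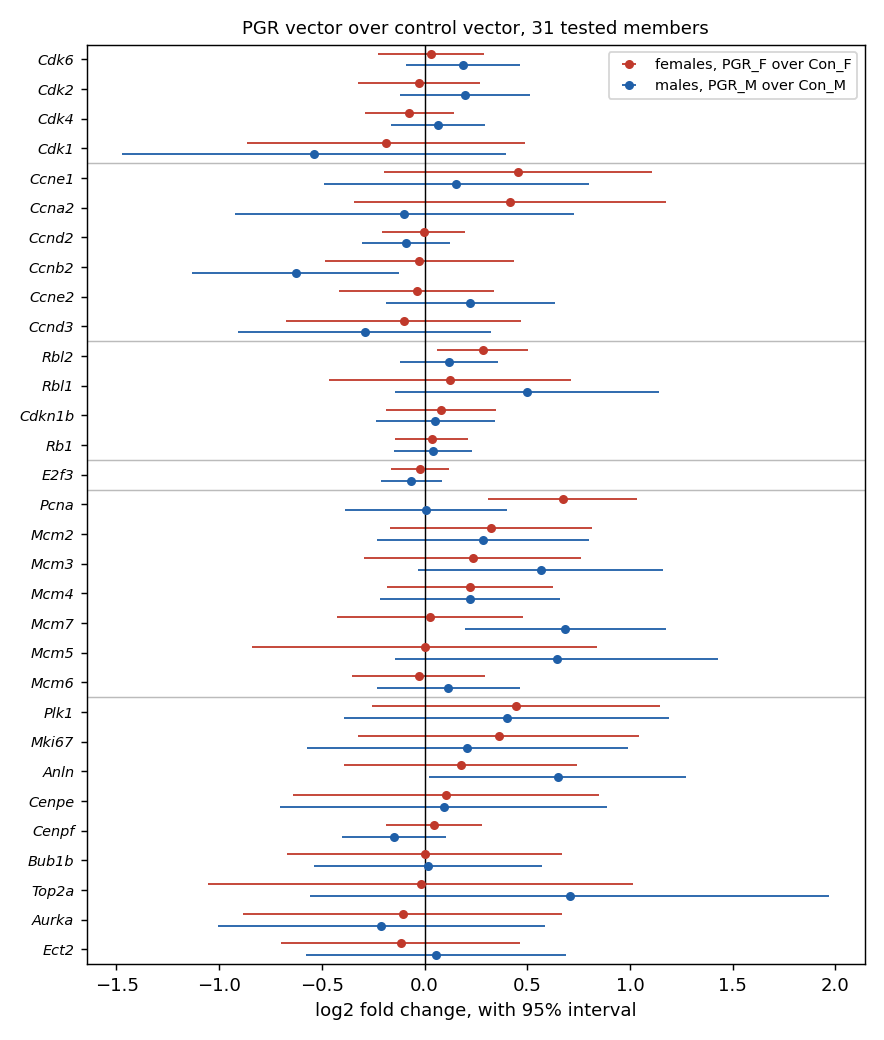
Log2 fold change of the 31 tested genes, receptor vector over empty vector, in females (red) and males (blue), with 95% intervals, ordered by role. Pcna in females (0.67) and Mcm7 in males (0.69) lie farthest from 0 relative to their intervals.

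Averaged over the sexes, none of the 31 genes passed, and 0.00620% of all tested genes did. At an unadjusted p under 0.05 stood 4 genes, all higher, against 14.8% of all genes: Pcna at 0.34 (SE 0.13, edgeR adjusted p = 0.242), Rbl2 at 0.20 (SE 0.08), Mcm7 at 0.36 (SE 0.16) and Mcm3 at 0.40 (SE 0.19). The median of the 31 was 0.10, with 22 above and 9 below 0, beside 0.00 over all genes, 51.0% of which were above 0. The replication genes all had values above 0, with a median of 0.32, and besides Pcna, Mcm7 and Mcm3 the helicase subunits Mcm2, Mcm4, Mcm5 and Mcm6 stood at 0.30, 0.22, 0.32 and 0.04. The value of Mcm6 was below 0 without PGR_F 2 (-0.01) or without PGR_M 2. The summed level of the 7 replication genes was 11.641 to 13.420 CPM in PGR_F against 9.197 to 11.999 in Con_F, and 10.999 to 12.386 in PGR_M against 8.999 to 9.178 in Con_M. The male groups did not overlap and the female groups did. In males the mean sum was 11.7 CPM in PGR_M and 9.07 in Con_M, of which Mcm7 alone made up 4.27 and 2.68. A share over all genes was not computed for this sum. With both sexes pooled, the libraries overlapped for each of the 31 genes, where 0.260% of all genes were higher in all 6 receptor-vector libraries than in all 7 empty-vector ones and 0.360% lower.

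The other genes stood as follows in the average over the sexes, none past the threshold. Among the kinases the log2 fold change was 0.11 for Cdk6, 0.09 for Cdk2, -0.00 for Cdk4 and -0.36 for Cdk1. Among the cyclins it was 0.31 for Ccne1, 0.16 for Ccna2, 0.09 for Ccne2, -0.05 for Ccnd2, -0.20 for Ccnd3 and -0.33 for Ccnb2. The inhibitor Cdkn1b was at 0.07, the pocket proteins Rbl1 and Rb1 at 0.31 and 0.04, and E2f3 at -0.04. Among the genes of mitosis, Plk1 was at 0.42, Anln at 0.41, the topoisomerase Top2a at 0.34, Mki67 at 0.29, the kinetochore motor Cenpe at 0.10, the checkpoint kinase Bub1b at 0.01, the cytokinesis exchange factor Ect2 at -0.03, Cenpf at -0.05 and the spindle kinase Aurka at -0.16. Their standard errors ran from 0.08 for Cenpf to 0.38 for Top2a.

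Whether the vector acted differently in the sexes was tested as the effect in females minus that in males. None of the 31 genes passed, and 0% of all genes did. Pcna, at 0.67 (SE 0.25, edgeR adjusted p = 1.00), was the 1 gene at an unadjusted p under 0.05, against 3.26% of all genes. Pcna had 1.31, 1.78 and 1.72 CPM in PGR_M against 1.86, 1.51 and 1.34 in Con_M, so its male libraries overlapped. Mcm7 stood at -0.66 (SE 0.31), Ccnb2 at 0.60 (SE 0.32), Mcm5 at -0.64 (SE 0.50) and Cenpf at 0.19 (SE 0.16). DESeq2 likewise called none of the 31 genes in the vector comparisons or in this difference.

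Between females and males, the libraries did not overlap for Cenpf and Cdk1. Cenpf (chr1:189640606-189688086, GRCm38, minus strand) had 30.1, 24.2 and 22.0 CPM in PGR_F 1, 2 and 4 and 26.9, 25.6, 23.0 and 22.7 in Con_F 1 to 4, against 17.1, 17.7 and 17.0 in PGR_M and 18.1, 21.9 and 17.3 in Con_M. Every one of the 7 female libraries stood above every one of the 6 male libraries. The gap was very narrow, with Con_M 2 at 21.93 CPM and the lowest female library, PGR_F 4, at 21.96. Cdk1 (chr10:69335146-69352938, minus strand) had 0.436, 0.204 and 0.272 CPM in PGR_F and 0.416, 0.327, 0.311 and 0.264 in Con_F, against 0.138, 0.0860 and 0.0821 in PGR_M and 0.140, 0.142 and 0.187 in Con_M. No male library reached the lowest female one, at 10 to 24 counts per female library and 4 to 12 per male library. Since Cdk1 passed the count filter through its female libraries (6 of 7, against 0 of 6 male ones), this separation is a description and not support. For Cenpf, which was over the filter in all 13 libraries, the background is that 0.540% of all tested genes were higher in every female library and 0.366% lower.

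**Figure D4:**
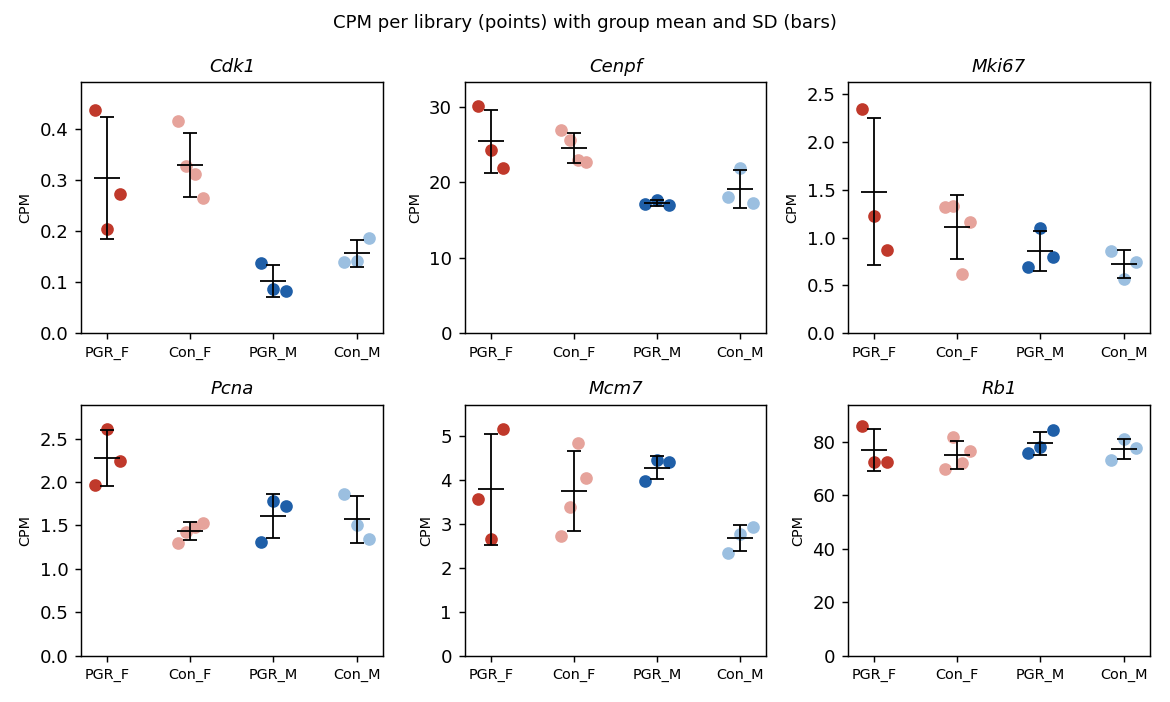
CPM of Cdk1, Cenpf, Mki67, Pcna, Mcm7 and Rb1 in each library (points) with the group mean and SD (bars), for PGR_F, Con_F, PGR_M and Con_M, each axis from 0. All female libraries lie above all male ones for Cdk1 (lowest female 0.204, highest male 0.187) and, barely, for Cenpf (21.96 and 21.93), and Rb1 overlaps between groups.

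Under each vector alone, neither gene passed with edgeR. In PGR_F over PGR_M, Cenpf was at 0.56 (SE 0.12, edgeR adjusted p = 0.118) and Cdk1 at 1.47 (SE 0.40, adjusted p = 0.307), and 0.143% of all genes passed. With DESeq2 Cenpf passed there, at 0.55 (adjusted p = 0.0110), and with no filter on low counts it passed in edgeR at 0.55 (adjusted p = 0.00564). These 2 fits called 80 and 51 of all genes there, against 23 in the main edgeR fit. In Con_F over Con_M, Cenpf was at 0.36 (SE 0.11, adjusted p = 0.223) and Cdk1 at 1.12 (SE 0.35, adjusted p = 0.230), and 0.229% of all genes passed. A contrast chosen after these values were seen, female over male averaged over both vectors, had 0.887% of all genes past the threshold. In it Cenpf was 1.38-fold higher in females (log2 fold change 0.46, SE 0.08, edgeR adjusted p = 0.0131) and Cdk1 2.46-fold higher (1.30, SE 0.27, adjusted p = 0.0312). The contrast was chosen with both genes' values known, and Cdk1 entered it on account of its female libraries, so these values describe the libraries. With genes kept instead by a mean count of at least 10 over all libraries, Cdk1 was at 1.29 (edgeR adjusted p = 0.0295). Its mean count was 10.8, with 4 to 12 counts per male library. It thus passed this filter too on account of its female libraries, and the value is no separate check. The call of Cenpf ended without Con_M 3 (adjusted p = 0.0505) or PGR_M 3 (0.0501), which left 0 of the 31 genes called in each case. The call of Cdk1 ended in 9 of 13 fits that left out 1 library, those without Con_F 1, 2 or 3, Con_M 2 or 3, PGR_F 1 or 4, and PGR_M 2 or 3, with adjusted p up to 0.0951. Its log2 fold change in the 13 fits was 1.15 to 1.44. Without Con_F 4, the library with Y-linked counts, Cenpf was at 0.48 (adjusted p = 0.00923) and Cdk1 at 1.34 (adjusted p = 0.0236).

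None of the other genes passed between the sexes. With the receptor vector, 5 genes stood at an unadjusted p under 0.05, all higher in PGR_F, against 7.24% of all genes. Besides the pair already given these were Pcna at 0.51 (SE 0.18), Ccnb2 at 0.55 (SE 0.24) and Ccnd3 at 0.63 (SE 0.28). With the empty vector there were 6, all higher in Con_F, against 12.4% of all genes. Among them were Mcm3 at 0.63 (SE 0.27), Top2a at 1.25 (SE 0.54) and Mcm7 at 0.49 (SE 0.22). The median over the 31 genes was 0.13 in PGR_F over PGR_M (24 above 0, 7 below) and 0.23 in Con_F over Con_M (22 above, 9 below), beside 0.01 and -0.00 over all genes, of which 53.1% were above 0 with the receptor vector and 50% with the empty vector. Libraries did not overlap for 6 genes with the receptor vector, all higher in females (Cenpf, Pcna, Ccnd3, Mcm4, Ccnb2 and Cdk1), where 7.30% of all genes were. With the empty vector 8 were higher (Cdk6, Cenpf, Ccne2, Mcm6, Mcm5, Top2a, Anln and Cdk1), where 6.41% of all genes were, and E2f3 was lower, where 4.94% of all genes were.

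**Figure D5:**
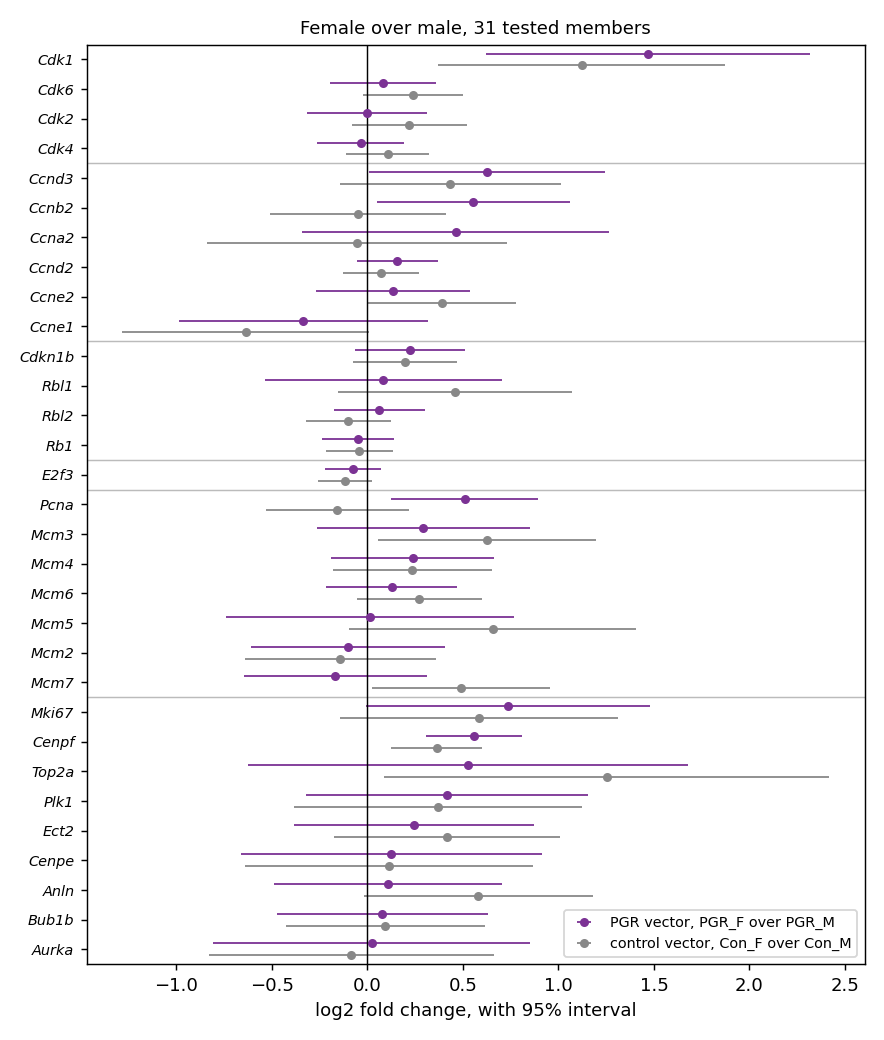
Log2 fold change of the 31 tested genes, female over male, with the receptor vector (purple) and the empty vector (grey), with 95% intervals, ordered by role. Cdk1 (1.47 and 1.12) and Cenpf (0.56 and 0.36) have both intervals above 0.

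In the average over both vectors 8 genes stood at an unadjusted p under 0.05, 7 higher and 1 lower in females, against 15.1% of all genes, and the median was 0.20 (25 above 0, 6 below) beside 0.01 over all genes, 51.6% of which were above 0. Mki67 was at 0.66 (SE 0.24, edgeR adjusted p = 0.207), Ccnd3 at 0.53 (SE 0.19) and Mcm3 at 0.46 (SE 0.19). Mki67 had 2.34, 1.22 and 0.867 CPM in PGR_F and 1.32, 1.33, 0.622 and 1.16 in Con_F, against 0.691, 1.10 and 0.800 in PGR_M and 0.862, 0.570 and 0.747 in Con_M. Its groups overlapped, and Con_F 3 stood below most male libraries. The 1 gene lower in females was Ccne1 at -0.49 (SE 0.22), whose product partners Cdk2 at the entry to S phase.

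Markers of other heart cells also stood mostly above 0, none past the threshold. In the average over both vectors all 12 fibroblast markers had values above 0 (median 0.73) and so did all 15 endothelial markers (median 0.50), as did 11 of 13 tested macrophage markers (median 0.25), where 51.6% of all genes were above 0. The 15 cardiomyocyte markers had a median of -0.03, with 6 above and 9 below 0. In bulk nuclei, fewer nuclei of a type and less RNA per nucleus cannot be told apart. The part of these other cells in the higher Cenpf and Cdk1 of females was not tested. PGR_F 1 had the lowest fibroblast and endothelial sums of the female libraries, 84.1 and 50.9 CPM, and the highest Cdk1 and Cenpf of all libraries. Its macrophage markers summed to 30.1 CPM, within the PGR_F range of 27.9 to 35.2, and its lymphocyte markers to 1.47 CPM, the highest of all libraries. What set this single library apart was not tested.

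PGR_F 1 stood out among the libraries for genes of division. It had the highest value of all 13 libraries for 8 of the 12 genes of mitosis and 14 of all 36 genes. Of all tested genes, 12.5% were highest in it. The 12 and 36 genes include some under the count filter, such as Bub1 with 10 counts in PGR_F 1. Its total of 31.8 M counts was the lowest of the 13 libraries. Top2a had 1.47 CPM in PGR_F 1 against 0.326 and 0.374 in the other two PGR_F libraries, Anln 1.81 against 0.836 and 0.884, and Cenpe 1.31 against 0.530 and 0.544. The lymphocyte markers, all under the count filter, summed to 1.47 CPM in it and to at most 0.817 in any other library, and their part was not tested. Con_F 2 came next, highest for 10 of the 36 genes where 8.88% of all tested genes were. Without PGR_F 1 the median of the 31 genes in PGR_F over PGR_M was 0.00977, and the vector averages of Top2a, Cenpe and Bub1b turned to -0.12, -0.15 and -0.17. Those of Mki67 and Anln were then 0.05 and 0.21, against 0.29 and 0.41 with it.

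The wider pathway was read from 4 further lists, none of whose genes passed in edgeR's fit to all libraries. Of 38 tested genes of origin licensing and replication, 5 stood at an unadjusted p under 0.05 in the average vector effect, all higher, with a median of 0.11 and 27 above 0. Of all tested genes 14.8% stood under this p and 51.0% were above 0. The share under this p was near or below 14.8% in each of the 4 lists. The smallest p belonged to Rpa2, a subunit of the single-strand binding complex (0.43, SE 0.13, edgeR adjusted p = 0.176), and the clamp loader subunits Rfc3 (0.50, SE 0.17) and Rfc5 (0.51, SE 0.17). Of 36 tested further genes of mitosis 1 did so, the centromere gene Cenpi (0.53, SE 0.24), with a median of 0.01. The securin gene Pttg1 was at -0.12 and the centromeric histone gene Cenpa at 0.22. Of 24 tested regulators of the kinases 3 did so: Meis1, a homeobox factor known to restrain the cardiomyocyte cycle (0.19, SE 0.08), the damage kinase Atm (0.18, SE 0.08), and Wee1, which encodes the kinase that inhibits Cdk1 (-0.74, SE 0.32). Of 12 tested genes of the E2F and DREAM complexes 2 did so, both lower: E2f4, the repressor E2F of resting cells (-0.31, SE 0.09, adjusted p = 0.136), and its partner Tfdp1 (-0.19, SE 0.06). E2f7, an atypical repressor, was at -0.52 (SE 0.29). E2f4 passed with DESeq2 at -0.31 (adjusted p = 0.0440), and without Con_F 4 edgeR called E2f4 (adjusted p = 0.0382) and Tfdp1 (adjusted p = 0.0474). Those fits called 334 and 338 of all genes, against 1 in the edgeR fit to all libraries. In the sexes, 11 of the 36 further genes of mitosis stood at an unadjusted p under 0.05 in Con_F over Con_M, all higher, where 12.4% of all genes did, with a median of 0.49 and 30 above 0. In PGR_F over PGR_M 2 did so, where 7.24% of all genes did, with a median of 0.20 and 29 above 0. None of these passed.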

How the data were processed

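RNA of sorted Pcm1(+) nuclei was isolated with TRIzol, depleted of ribosomal RNA and made into strand-aware libraries, per the labels' protocols. The authors deposited raw counts per gene, with 1 column per library and no normalization. Per the submitters' processing notes, the builds were GRCm38 and mm10 and the tools STAR 2.5.3a and featureCounts 1.5.0, whose roles are not spelt out. In all 55536 genes the deposited length equalled the interval from start to end, so introns are included. The sources used here do not say how overlapping genes were counted. The name of the deposited counts holds the tag strrev, a strand setting that is not spelt out further. Of the 36 genes, 4 overlap a neighbour on the same strand and 18 one on the opposite strand. A second deposited table held 15645 of these genes, those with a mean count of at least 10, with 0 differing values, and was not analysed separately.

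The analysis used edgeR 4.0.16 under R 4.3.3. The filterByExpr filter (minimum count 10) left 16125 genes, TMM scaled the libraries, and all 13 libraries entered 1 robust quasi-likelihood fit with a mean for each of the 4 groups. Contrasts were receptor vector over empty vector in females, in males and on average, their difference, and female over male under each vector. Female over male averaged over the vectors was added after the data were seen. P-values were adjusted by Benjamini-Hochberg over all tested genes, with a threshold of 0.05. A count of 0 was read as allowing up to 3 counts. SE was taken as log2 fold change over the root of the F statistic, and intervals are at 95%. Replicates are pools of ventricles, and nothing in the labels says more of how they were kept apart, so p-values measure the spread between these libraries. Alternatives used DESeq2 1.42.0, limma-voom (limma 3.58.1), other size factors, other filters, fewer groups, a replicate block and each library left out. The fits were tested on simulated data.

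The 36 genes and all lists were chosen with earlier results of these data known. By rule, per-library values are given for the gene with the smallest p in each contrast and for Cdk1, Mki67, Ccnd2, Cdk6 and Rb1. Log2 fold changes are given for all 31 tested genes in the average vector effect and for the 5 with the smallest p in the other contrasts, and for the 3 with the smallest p in each pathway list. Values of Ccnb2, Top2a, Anln, Cenpe, Wee1, Mcm5 and E2f3 in single libraries were chosen after they were seen.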

Additional observations from a re-analysis of the deposited data

Results flagged for a closer look

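Among the 4 Con_F libraries, Con_F 2 stood apart for Ect2, an exchange factor needed for cytokinesis, with 2.71 CPM against 1.30 to 1.43 in the other three. It was the 1 such flag among the 31 tested genes, and the test was made in Con_F alone because the other groups hold 3 libraries. Chance flags about 1 in 20 groups.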

How the results depend on the processing

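The number of the 31 genes called was 0 in the planned contrasts under every alternative run, except that DESeq2 and no filter on low counts each called 1 gene, Cenpf, in PGR_F over PGR_M. Counts over all genes moved more. With DESeq2 they were 81 in females, 29 in males, 334 on average, 1 for the difference, 80 and 224 for sex under the receptor and the empty vector, and 548 for sex on average. With no filter they were 25 in females, 12 in males, 146 on average, 1 for the difference, 51 and 131 for sex under the receptor and the empty vector, and 363 for sex on average. With only the groups compared they were 1 for males, 56 for sex under the receptor vector and 17 under the empty vector. Leaving out 1 library gave 0 to 20 in females, 0 to 3 in males, 1 to 338 on average, 10 to 44 and 14 to 99 for sex under the receptor and the empty vector, and 64 to 465 for sex on average, where 0 to 2 of the 31 genes were called. The medians of the 31 genes then ran from -0.0285 to 0.194 in females, 0.0658 to 0.18 in males, 0.0507 to 0.132 on average, -0.10 to 0.0385 for the difference, 0.00977 to 0.21 and 0.13 to 0.29 for sex under the receptor and the empty vector. A mean of at least 1 CPM left 18 measurable genes. Average vector effects that crossed 0 were Bub1b at -0.0465 and Cdk4 at 0.000178 with limma-voom and Cdk4 at 0.00637 with no filter. With 1 library left out these also crossed 0, in the ranges -0.0311 to 0.0382 for Cdk4, -0.15 to 0.13 for Ect2, -0.17 to 0.11 for Bub1b, -0.26 to 0.0332 for Aurka, -0.12 to 0.00642 for Cenpf, -0.12 to 0.53 for Top2a, -0.00798 to 0.0621 for Rb1, -0.15 to 0.24 for Cenpe and -0.0139 to 0.0881 for Mcm6. The cause was not tested. Counts of a few reads limit Cdk1 and most genes of mitosis.

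For the 16 same-numbered pairs of libraries from different groups, the correlation of deviations ran from -0.285 to 0.326, with a median of -0.0276. Pairs with different numbers ran from -0.394 to 0.331, and 4 of 13 libraries correlated best with their own number. With so few libraries per group, these correlations cannot tell whether same-numbered libraries share more than a number. A replicate block called 35 genes in PGR_F over PGR_M, against 23 without it, and changed no call among the 31 genes.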
